A study of Mus musculus with 4 samples.

Results

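Complex I (NADH:ubiquinone oxidoreductase) is the entry point of the mitochondrial respiratory chain. The genes described here are those whose symbol starts with Nduf, the naming root of its nuclear-encoded subunits and assembly factors, leaving out symbols that carry "-ps". This rule found 49 genes among the 54838 rows of each file. Of these, 36 encode subunits of the enzyme, 8 encode the assembly factors Ndufaf1 to Ndufaf8, and 5 carry an Nduf name without being a subunit here: Ndufa4, its paralog Ndufa4l2, and the processed pseudogenes Ndufa11b, Ndufb4c and Ndufs6b. The rule also left out 2 rows, Ndufab1-ps and Ndufb1-ps.

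RNA from Hepa1-6, a mouse hepatocellular carcinoma cell line, was sequenced in 4 libraries. The 2 NC libraries came from cells labelled as wild type for Acvr2a, a type II receptor gene of activin signalling, and the 2 KO libraries from cells labelled as Acvr2a knockout. The design text speaks of subclones of the knockout cells, but the labels do not say whether the KO libraries are 2 subclones or cultures of 1, so p-values measure the spread between these libraries, which may be technical. The labels name no other treatment and give no method of knockout, and the study's title asks about lactate production and glycolysis.

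Libraries held 11597945 to 13910593 counts, and genes named Nduf took 0.199% to 0.253% of them. The targeted gene was counted 81.0 and 108.4 times in NC and 74.7 and 97.4 times in KO, so the RNA total of Acvr2a did not separate the groups (log2 fold change -0.21, standard error 0.20, edgeR adjusted p = 0.433), and group names follow the labels. Of 8 hepatocyte markers, 6 were above 10 CPM (counts scaled to the same library total) in every library, while Apoa1 was counted 17 to 39 times and Ttr at most 1 time. Their summed level was 4010 to 4315 CPM in NC and 3137 to 3161 CPM in KO, but the list split. Alb (0.41, adjusted p = 0.00224) and Trf (0.54, adjusted p = 4.30e-05) were called higher on the log2 scale in edgeR, while Afp (-1.21), Apoe (-0.93), Hnf4a (-0.995) and Foxa2 (-0.89) were called lower. The 5 leukocyte markers summed to 0.264 to 0.361 CPM in NC and 0.607 to 0.887 CPM in KO with Cd3e at 0 in every library, and the 3 endothelial markers to at most 1.05 CPM. The 4 fibroblast and stellate markers summed to 0.433 to 0.527 CPM in NC and 3.03 to 3.18 CPM in KO, mostly from Col1a1, with Lrat at 0. The part of these markers in the results below was not tested. In RNA from whole cultures, fewer cells of a kind and less RNA per cell cannot be told apart.

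Complex I takes electrons from NADH, passes them along a chain of iron-sulfur clusters to ubiquinone and pumps protons across the inner mitochondrial membrane. Its N module binds NADH, its Q module reduces ubiquinone, and both form the arm that stands in the matrix. The membrane arm does the pumping and holds the 7 subunits encoded by mitochondrial DNA. A further 7 core subunits, all in the matrix arm, are encoded in the nucleus, and the other nuclear subunits are accessory. In liver the enzyme reoxidises the NADH made by fat, sugar and amino acid breakdown. Assembly factors help build the enzyme but are not part of the finished complex.

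Among the genes that passed the test, nearly all were lower in KO. Of the 49 genes, 46 passed the filter on low counts, with at least 55 counts in each library. In edgeR's quasi-likelihood test 20 of these 46 fell, 1 rose, and 25 did not pass an adjusted p of 0.05. Over all 12510 genes tested, 37.9% passed, 18.2% as lower and 19.7% as higher in KO, against 43.5% lower among the genes named Nduf. The median log2 fold change was -0.25 for these 46 genes and -0.0037 for all genes tested. Both KO libraries lay below both NC libraries for 32 of the 46 genes and above them for 4, where 34.7% and 34.8% of all genes tested did so. The filter asked for enough counts in at least 2 of the 4 libraries, so a gene could pass through 1 group alone. The 3 genes under the filter (Ndufa4l2, Ndufa11b and Ndufs6b) are counted in none of these shares.

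**Figure D1:**
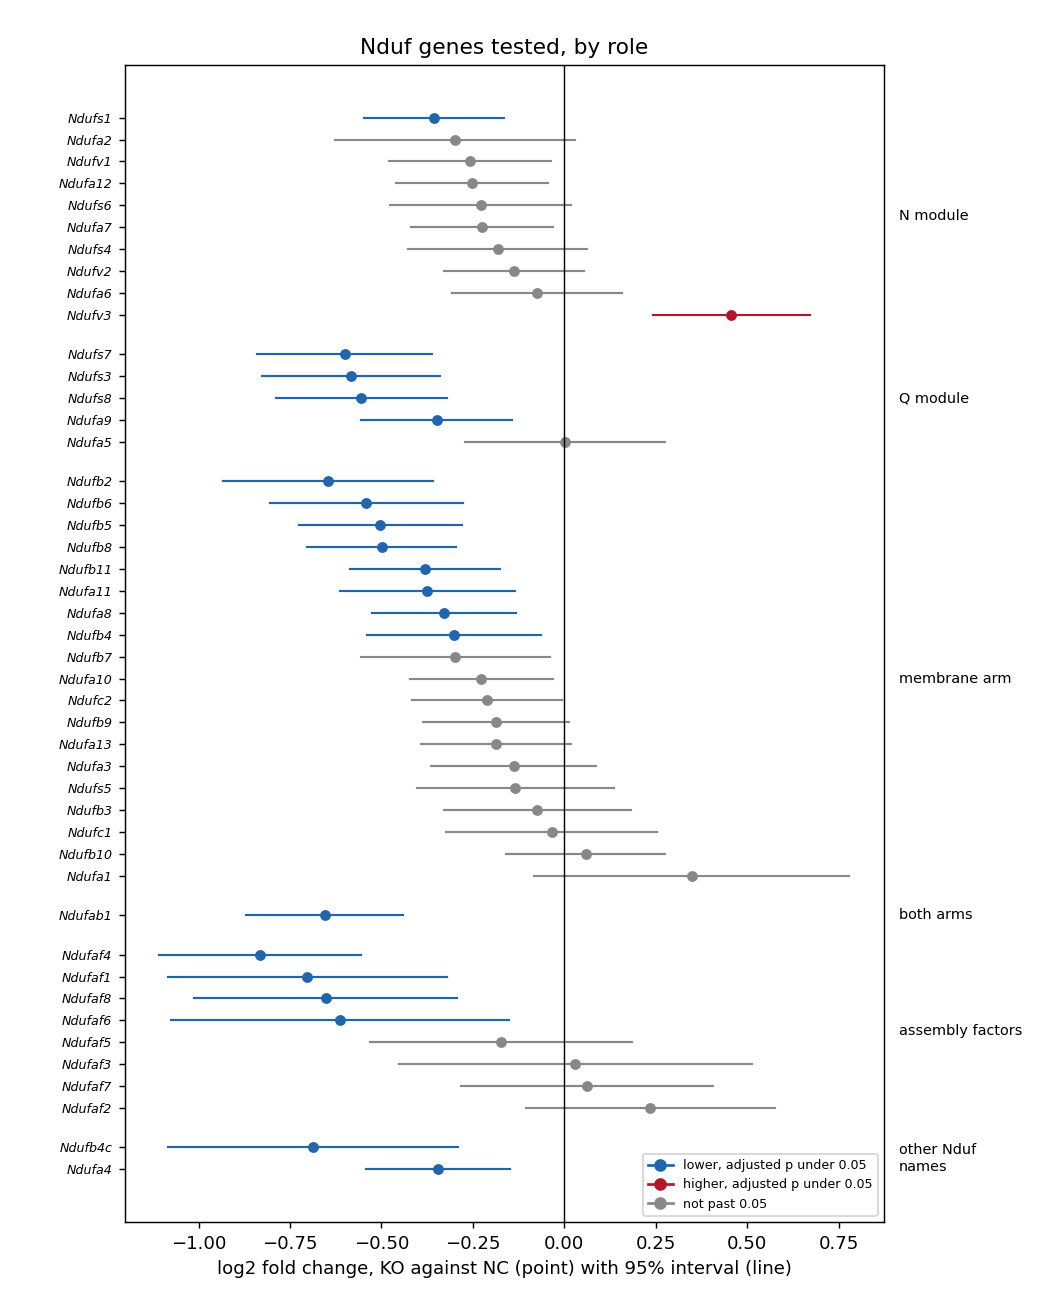
Log2 fold change of KO against NC for tested genes named Nduf, grouped by role (vertical axis), as points with the 95% interval of the edgeR fit as lines (2 libraries per group). Blue marks genes that passed an adjusted p of 0.05 as lower, red as higher and grey neither; the values run from -0.83 for Ndufaf4 to 0.46 for Ndufv3, which is the 1 red point.

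The 36 subunits gave 14 lower and 1 higher call, and 21 did not pass. On the log2(TPM + 1) scale 6 were called lower and 2 higher, where 691 and 1467 of all 12510 genes tested were. Without a filter on low values, that scale called 0 of all 20640 genes, and so 0 subunits. In the counts, the median log2 fold change of the subunits was -0.24, and 32 of 36 values were negative. The middle part of the list ran from -0.38 (lower quartile) to -0.14 (upper quartile). The summed TPM (a level scaled by transcript length and library) of the 36 subunits was 5298 and 4912 in the NC libraries and 4667 and 4241 in the KO libraries. Both KO sums lay below both NC sums, and the ratio of the group means was 0.872. Relative to each gene's own mean over the libraries, the median subunit stood at 0.19 and 0.085 for NC and at -0.10 and -0.15 for KO on the log2 CPM scale. The distance between the NC libraries was thus smaller than the distance between the groups.

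**Figure D2:**
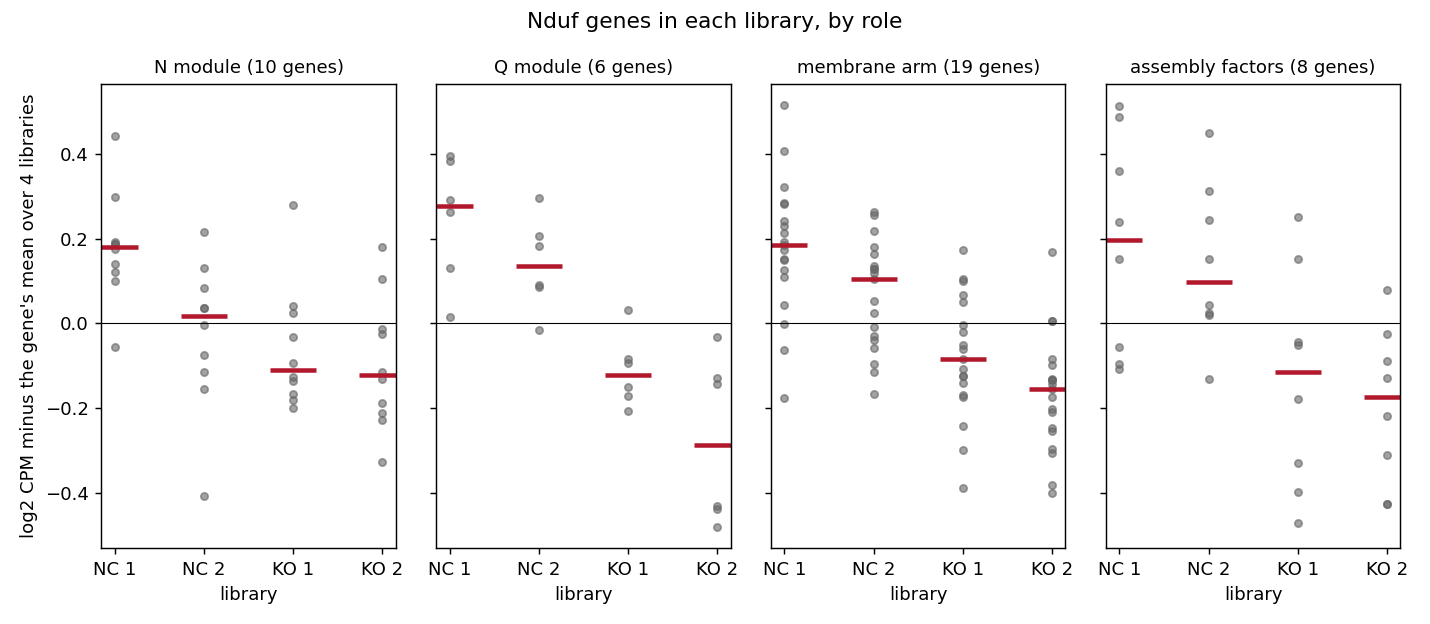
Log2 CPM of each gene minus its mean over the 4 libraries (vertical axis) in each library (horizontal axis), for the N module, the Q module, the membrane arm and the Ndufaf assembly factors; grey points are genes and red bars are medians. The Q module medians are 0.28 and 0.14 in NC and -0.12 and -0.29 in KO, the widest gap of the 4 panels.

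Levels differed widely between subunits that the finished enzyme holds in fixed numbers. In mean TPM over the 4 libraries, Ndufa3 was highest at 426.5, followed by Ndufa7 at 336.6, Ndufab1 at 290.0 and Ndufb8 at 276.2. Ndufv1, which binds NADH and the flavin cofactor, was lowest at 38.2, next to Ndufa1 at 38.8 and Ndufb4 at 44.4. The effective length of Ndufa3 was only 130 bases, and a length-scaled level of so short a transcript depends strongly on that length. The assembly factors were rarer, with a median over the 8 genes of 12.1 TPM in NC against 96.9 TPM for the subunits.

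**Figure D3:**
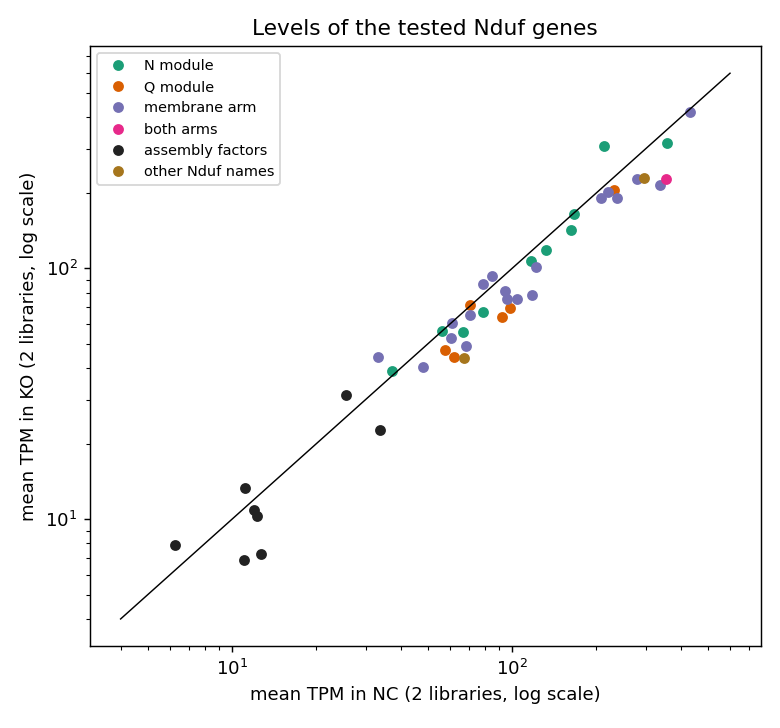
Mean TPM in NC (horizontal axis, log scale) against mean TPM in KO (vertical axis, log scale) for the 46 tested genes, coloured by role, each a mean of 2 libraries; the line marks equal levels. Assembly factors lie at the low end (median 12.1 TPM in NC, 10.6 TPM in KO), subunits about the medians of 96.9 TPM in NC and 79.9 TPM in KO, and most points lie below the line.

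The Q module showed the largest falls among core subunits. Of its 6 genes 4 fell (66.7%, against 18.2% of all genes tested), 2 did not pass and the median log2 fold change was -0.45. Ndufs7 (chromosome 10, 80249121 to 80256794, GRCm38), whose product carries the last iron-sulfur cluster before ubiquinone, was at 45.6 and 39.96 CPM in NC and 30.7 and 25.7 CPM in KO. The KO libraries were both below the NC libraries, and the log2 fold change was -0.60 (standard error 0.12, edgeR adjusted p = 0.000201). Ndufs8 (chromosome 19, 3908863 to 3912774), another iron-sulfur subunit, was at 69.4 and 60.4 CPM in NC and 50.2 and 38.1 CPM in KO. KO 2 was the lowest library for both genes, and the log2 fold change of Ndufs8 was -0.55 (standard error 0.11, adjusted p = 0.000380).

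Ndufs3 (chromosome 2, 90894634 to 90904827), a core subunit that joins the Q module early in assembly, was at 37.6 and 37.7 CPM in NC and 27.7 and 22.6 CPM in KO, a log2 fold change of -0.58 (standard error 0.12, adjusted p = 0.000338). The groups were apart, although exons of Ndufs3 overlap those of Kbtbd4 on the other strand and 17.9% of its 50-base words also occur in transcripts of other genes. The accessory subunit Ndufa9 fell by 0.35 on the log2 scale, and Ndufa5 stood at 0.0025 with overlapping groups. The calls of Ndufs3, Ndufs8 and Ndufa9 were lost on the log2(TPM + 1) scale, and that of Ndufa9 also without NC 1.

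In the N module 1 of 10 genes fell (10%, against 18.2% of all genes tested), 1 rose and 8 did not pass. The median log2 fold change was -0.23, with 9 values negative and 1 positive. Summed TPM of the module was 1450 and 1322 in NC against 1400 and 1349 in KO, so the groups overlapped (ratio 0.992). That sum includes Ndufv3, which had the positive value. Ndufv3 was at 239.5 and 187.6 TPM in NC and at 313.6 and 298.9 TPM in KO. For the Q module the sums were 613 and 611 in NC against 534 and 468 in KO (ratio 0.819). Ndufs1 (chromosome 1, 63143596 to 63176833), the largest core subunit, was at 90.4 and 95.3 CPM in NC and 73.1 and 72.0 CPM in KO. Both KO values were below both NC values, with a log2 fold change of -0.36 (standard error 0.09, adjusted p = 0.00349), which did not pass on the log2(TPM + 1) scale. Ndufv1 (chromosome 19, 4007384 to 4012806) was at 45.0 and 42.2 CPM in NC and 38.9 and 33.9 CPM in KO. Its log2 fold change of -0.26 (standard error 0.11, adjusted p = 0.06) did not pass, and it kept its sign under 14 of 17 alternatives. It passed as lower with a replicate block and with the GC trend removed. The sign changed on the TPM scales only, where log2(TPM + 1) gave 0.047, so the direction depended on the scale. Ndufv2 (chromosome 17, 66078638 to 66101559), which carries an iron-sulfur cluster beside Ndufv1, was at 112.3 and 107.4 CPM in NC and 95.9 and 103.8 CPM in KO, a log2 fold change of -0.14 (standard error 0.09, adjusted p = 0.257).

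Ndufv3 was the exception. It encodes a small accessory subunit of the N module (chromosome 17, 31520115 to 31531331) and was at 82.6 and 64.6 CPM in NC and 104.3 and 97.3 CPM in KO. Both KO libraries were above both NC libraries, and the log2 fold change was 0.46 (standard error 0.10, 95% interval 0.24 to 0.67, adjusted p = 0.00105). The call was lost without NC 2, where the value was 0.29. A fit that leaves out a library has 1 library in that group, which is assumed to vary like the other group. On the TPM scale Ndufv3 stood at 239.5 and 187.6 in NC and at 313.6 and 298.9 in KO, so by that measure too the groups were apart. Together the 7 nuclear core subunits gave 4 lower calls (57.1%, against 18.2% of all genes tested) and 3 that did not pass. All 7 had negative values, as did 6311 of all 12510 genes tested. The 29 accessory subunits gave 10 lower (34.5%), 1 higher and 18 that did not pass.

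The membrane arm had 8 of 19 genes lower (42.1%, against 18.2% of all genes tested), 0 higher and 11 that did not pass. Both KO libraries lay below NC for 14 of the 19, above for 2, and the groups overlapped for 3. Over all genes tested, both KO libraries lay below NC for 34.7% and above for 34.8%. Ndufb8 (chromosome 19, 44548572 to 44555440), an accessory subunit of the distal part of this arm, was at 106.9 and 108.5 CPM in NC and 83.9 and 68.5 CPM in KO. The NC libraries were close together and KO 2 was lowest, with a log2 fold change of -0.50 (standard error 0.10, adjusted p = 0.000271). The other lower genes were Ndufb2 (-0.65), Ndufb6 (-0.54), Ndufb5 (-0.50), Ndufb11 (-0.38), Ndufa11 (-0.38), Ndufa8 (-0.33) and Ndufb4 (-0.30). The share of 50-base words that also occur in other genes was 31.6% for Ndufb6, 18.3% for Ndufb4, 17.5% for Ndufb11 and 11.2% for Ndufb5. It was 5.52% for Ndufb2, 5.39% for Ndufa11 and 0% for Ndufa8. Ndufb4 was called at an adjusted p of 0.0405 and lost its call under 11 of 17 alternatives, Ndufa11 under 8 (among them without NC 1 and without KO 2), Ndufa8 under 6 (among them without NC 2) and Ndufb11 under 4 (among them without NC 1). Ndufa1 (0.35, adjusted p = 0.198) and Ndufb10 (0.059, adjusted p = 0.698) were the 2 genes of the arm with positive values. Ndufa1 passed as higher on the log2(TPM + 1) scale (0.41) and with the trend on transcript length removed (0.52).

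Ndufab1, the mitochondrial acyl carrier protein, sits on both arms of the complex and also serves fatty acid synthesis in mitochondria. Its gene (chromosome 7, 122085403 to 122101886) had the lowest p of all genes named Nduf. It was at 108.2 and 89.2 CPM in NC and 67.0 and 58.1 CPM in KO, and each KO value was well under each NC value. The log2 fold change was -0.66 (standard error 0.10, adjusted p = 1.81e-05), or 63.5% of the NC level. Its exons overlap Gm44986 on the other strand, and 9.27% of its 50-base words occur in other transcripts, with Gm4459 sharing the most.

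The assembly factors divided into 4 genes that fell and 4 that did not pass, with a median log2 fold change of -0.39 over the 8 (-0.18 on the log2(TPM + 1) scale). Ndufaf4 (chromosome 4, 24898083 to 24905001), which works with Ndufaf3 on the early Q module, was at 28.8 and 25.03 CPM in NC and 15.2 and 14.9 CPM in KO. The KO libraries were nearly equal and far below NC, with a log2 fold change of -0.83 (standard error 0.13, 95% interval -1.11 to -0.56, adjusted p = 2.17e-05), the largest change among the 46 genes. Ndufaf1 (chromosome 2, 119655446 to 119662827), part of the assembly complex that also holds Ecsit and Acad9, was at 10.02 and 11.61 CPM in NC and 6.07 and 7.25 CPM in KO. Its log2 fold change was -0.70 (standard error 0.19, adjusted p = 0.00383), and the call was lost without NC 2.

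Ndufaf8 (chromosome 11, 120098928 to 120100705), the partner of Ndufaf5, was at 13.9 and 10.96 CPM in NC and 7.81 and 7.91 CPM in KO, a log2 fold change of -0.65 (standard error 0.18, adjusted p = 0.00442). Without NC 1 this call was lost. Ndufaf6 (chromosome 4, 11051045 to 11076205), an early-acting factor, was at 7.12 and 6.56 CPM in NC and 4.85 and 4.07 CPM in KO, a log2 fold change of -0.61 (standard error 0.23, adjusted p = 0.0323). It is the least certain of the 4 calls, lost under 9 of 17 alternatives, and its groups overlapped in TPM.

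Ndufaf5, which modifies an arginine of Ndufs7, was at 10.5 and 9.52 CPM in NC and 9.10 and 8.58 CPM in KO, a log2 fold change of -0.17 (95% interval -0.53 to 0.19, adjusted p = 0.461). Ndufaf3 was at 4.83 and 5.12 CPM in NC and 4.85 and 5.32 CPM in KO, and Ndufaf7, a methyltransferase, at 9.93 and 11.04 CPM in NC and 11.9 and 10.1 CPM in KO, with overlapping groups for both. Ndufaf2, a paralog of Ndufa12 that acts late in assembly, was at 10.3 and 10.03 CPM in NC and 13.1 and 10.8 CPM in KO. Its log2 fold change of 0.24 did not pass (adjusted p = 0.275), and 64.1% of its 50-base words are shared with other genes, most with B230220B15Rik on the other strand, so its total is uncertain. The difference between subunits and assembly factors was not tested. In the counts, 14 of 36 subunits (38.9%) and 4 of 8 assembly factors (50%) fell, beside 18.2% of all genes tested. Their median log2 fold changes were -0.24 and -0.39, and the ratio of KO to NC in summed TPM was 0.872 and 0.887. The sum over assembly factors includes Ndufaf2, at a mean of 25.4 TPM in NC and 31.4 TPM in KO.

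Outside the complex, Ndufa4 (chromosome 6, 11900292 to 11907497), now placed in cytochrome c oxidase, was at 94.6 and 85.05 CPM in NC and 73.0 and 68.3 CPM in KO. Its groups were apart, with a log2 fold change of -0.35 (standard error 0.10, adjusted p = 0.00563), and the call was lost without NC 1, on the log2(TPM + 0.1) scale and with the length trend removed. Its paralog Ndufa4l2, known as a gene induced by low oxygen, was counted 0 and 1 times in NC, then 0 and 2 times in KO, under the 3 counts that a count of 0 allows (0.216 to 0.264 CPM by library, counting error only). The pseudogenes Ndufa11b and Ndufs6b had 0 counts in every library. Ndufb4c was called lower (log2 fold change -0.69, adjusted p = 0.00610), but 100% of its 50-base words occur in other genes, most in Ndufb4, so reads may have been shared out between these 2 rows.

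Overlap and transcript length bear on how the calls can be read. Only 12 of the 36 subunits share no exon with another gene and no 50-base word with another transcript, on either strand. Of these 12, 2 fell (Ndufs8 and Ndufa8, 16.7%, against 18.2% of all genes tested), 10 did not pass and 9 had negative values, with a median log2 fold change of -0.20. Ndufs7, with 0.443% of its words shared, is not among them. Subunits with exon overlap on the same strand were Ndufb2, Ndufb8 and Ndufb9, and all other exon overlaps of subunits were on the opposite strand. Of the 5 assembly factors with neither overlap nor shared words, 4 fell. This division was made after the values were seen.

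Short transcripts were lower in KO across the transcriptome. Among all tested genes with an effective length of 300 to 500 bases the median log2 fold change was -0.19 and 30.4% were called lower, and from 500 to 800 bases the values were -0.12 and 24.1%. At 3000 bases and longer the median was 0.087 and 12.7% were called lower. The 13 subunits of 300 to 500 bases had a median of -0.30 with 5 lower, and the 8 of 500 to 800 bases had -0.36 with 6 lower. The 8 subunits under 300 bases had -0.14 with 1 lower, beside -0.11 and 12.5% for all genes of that length. With the length trend taken out of each library the subunit median was -0.15 and the assembly factor median was -0.28. That fit called 11 of the 36 subunits lower and 2 higher. Of all 12510 genes tested it called 2378 lower and 2472 higher.

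**Figure D4:**
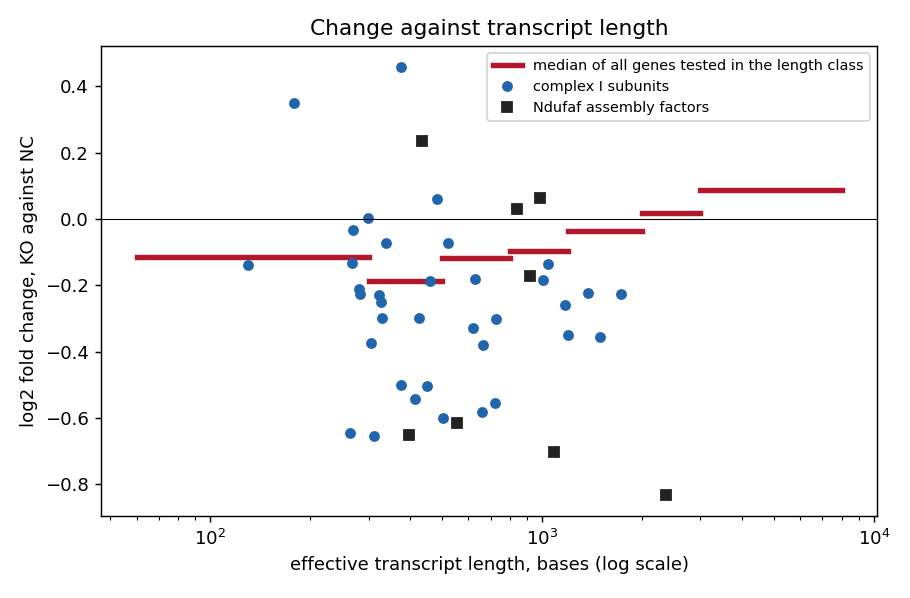
Log2 fold change of KO against NC (vertical axis) by effective transcript length in bases (horizontal axis, log scale) for the 36 subunits (blue points) and 8 assembly factors (black squares); red bars are medians of all tested genes per length class, the first and last classes being open-ended. The red bars go from -0.19 at 300 to 500 bases to 0.087 at 3000 bases and above, and most blue points from 300 to 800 bases lie below the bar of their class.

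Further lists around complex I were counted in the same fit. Among the assembly factors without the Nduf name, Coa1 was not matched by symbol. Of the other 7 (Acad9, Ecsit, Tmem126b, Timmdc1, Foxred1, Nubpl and Tmem186) 0 passed in edgeR, against 37.9% of all genes tested. In edgeR 0 had an unadjusted p under 0.05, where 5833 of all 12510 genes did. DESeq2 also called 0, where it called 3217 of the 12510. The log2 fold changes of these 7 genes ran from -0.33 for Tmem126b to 0.16 for Nubpl, with a median of 0.046. The 7 subunits encoded by mitochondrial DNA gave 2 lower calls (28.6%, against 18.2% of all genes tested) and 2 higher (against 19.7%). mt-Nd6, the 1 gene of this list on the opposite strand of the mitochondrial genome, was at 1037 and 680 CPM in NC and 1360 and 1381 CPM in KO, a log2 fold change of 0.68 (standard error 0.12, adjusted p = 0.000106). mt-Nd5, whose exon overlaps that of mt-Nd6, was higher by 0.29, mt-Nd1 was lower at -0.29 and mt-Nd4l was lower at -0.35 with overlapping libraries. mt-Nd3 was listed at 0 in NC 1 and KO 2 but at 78.7 and 79.4 counts in NC 2 and KO 1, so no fold is given for it, and it is among the 3 that did not pass. DESeq2 called 2 genes of this list, where it called 3217 of all 12510 genes tested. The fit with the length trend removed called 0 lower and 2 higher, where 2378 and 2472 of all 12510 genes were.

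Of 9 regulators of respiratory chain transcription, 2 fell (22.2%, against 18.2% of all genes tested), 0 rose and 7 did not pass. That share is near the one over all genes. Ppargc1a, which encodes the coactivator PGC-1alpha, was at 9.75 and 10.7 CPM in NC and 5.16 and 6.21 CPM in KO, with both KO libraries below NC and a log2 fold change of -0.85 (standard error 0.19, adjusted p = 0.00106). Pprc1, a related coactivator, was at 186.3 and 206.6 CPM in NC and 141.3 and 120.2 CPM in KO, a log2 fold change of -0.59 (standard error 0.10, adjusted p = 3.20e-05). Nrf1 (-0.0095), Yy1 (-0.014), Gabpa (-0.12), Esrra (-0.11), Tfam (-0.098) and Gabpb1 (-0.27) did not pass. Ppargc1b, a paralog of Ppargc1a, had the 1 positive value of the list (0.54, adjusted p = 0.0803), and its KO libraries lay above its NC libraries. On the log2(TPM + 1) scale 0 of the 9 passed.

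Promoter windows were read for letters known from factors that act on respiratory chain genes. RefSeq windows on GRCm38.p6, from 250 bases before to 50 after the start, were found for 40 of the 49 genes, and 27025 symbols had one in all. Both strands were searched. The letters GCGCATGCG, read by the factor NRF1, were in 4 of 40 windows (10%) against 1.95% of all promoters, and AAGATGGC, read by YY1, in 8 of 40 (20%) against 3.19%. CCGGAAG, read by ETS factors, was in 6 of 40 (15%) against 9.93%, TCAAGGTCA, read by ERR receptors, in 0 of 40 against 0.466%, and ACGTG, the core of the hypoxia response element, in 7 of 40 (17.5%) against 21.8%. None of these strings holds another.

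Among assembly factors, the windows of Ndufaf4 and Ndufaf5 held the NRF1 letters and those of Ndufaf1 and Ndufaf8 the ETS letters. Of these genes Ndufaf5 did not pass and the others fell. The upstream stretches of 2 assembly factor genes that fell are shown because they hold such letters and no annotated exon. Each is the 120 bases before the RefSeq start, written 5′ to 3′ in the direction of the gene, with the matched letters of both strands in capitals (NRF1 letters in Ndufaf4, ETS letters in Ndufaf1). Ndufaf4 covers chr4:24897963-24898082 on the plus strand and Ndufaf1 chr2:119662835-119662954 on the minus strand.
Ndufaf4: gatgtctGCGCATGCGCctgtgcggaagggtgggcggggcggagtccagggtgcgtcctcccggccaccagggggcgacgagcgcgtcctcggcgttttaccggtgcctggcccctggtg
Ndufaf1: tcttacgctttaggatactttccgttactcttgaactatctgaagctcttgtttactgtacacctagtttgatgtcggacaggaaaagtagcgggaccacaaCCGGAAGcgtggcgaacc

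Among the 17 genes with a window that were called lower, the NRF1 letters were in 3, the ETS letters in 5, the YY1 letters in 4 and the hypoxia letters in 0. Among the 23 tested genes with a window that were not called lower the numbers were 1, 1, 4 and 7. These genes were divided by their own calls, so the counts are a description without a test, and a match in letters is not a bound site.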

How the data were processed

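Total RNA of Hepa1-6 cells was sequenced in 4 directional libraries (2 NC, 2 KO), per the labels' protocols. STAR and RSEM are among the tools, and GRCm38 and mm10 the builds, in the submitters' processing notes. Versions, annotation release and strand setting are not given in the sources used here. The deposited expected counts are unnormalised estimates per gene and the deposited TPM were scaled by the authors for transcript length and library, as the file headers name them. RSEM divides reads between similar genes, so their totals are uncertain. The deposited effective length, another column of the file headers, was used for length classes.

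Expected counts were rounded (totals changed by at most 0.000188%), filtered with filterByExpr (12510 genes, at least 99.9% of counts) and TMM-scaled. KO was compared with NC by edgeR 4.0.16 quasi-likelihood tests in R 4.3.3, two-sided, group as the only term, with Benjamini-Hochberg adjustment over all genes tested and a threshold of 0.05. Standard errors are the log2 fold change divided by the root of F, and the intervals cover the spread of these libraries only. With 2 libraries per group the spread is shared across genes (25.8 prior degrees of freedom). Alternatives used DESeq2 1.42.0, limma 3.58.1 on log2(TPM + 1) and log2(TPM + 0.1), other scalings and filters, trends on length or GC, a replicate block and each library left out. The correlation of same-numbered libraries' deviations was -0.012, so the numbers were not taken as pairs.

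Positions and exon overlaps come from GENCODE M21 (GRCm38), 1-based. Shared sequence is the percent of a gene's 50-base words found in transcripts of other genes, on either strand. Genes, lists and tests were chosen with earlier results of these data known. Values in every library are given for the nuclear core subunits, the Ndufaf genes, Ndufa4, Ndufa4l2 and the 6 genes with the lowest p in each direction among those past 0.05 (1 rose), others by counts. Genes outside the rule come from the lists given in the text. FPKM was not used. 1 gene is not reported here, nor drawn in the plot of changes by gene.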

Additional observations from a re-analysis of the deposited data

How the results depend on the processing

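The GC alternative was chosen after seeing the data, and the other 16 were planned. Against 4741 genes called in all (2282 lower, 2459 higher), log2(TPM + 1) gave 2158 (691 lower, 1467 higher), log2(TPM + 0.1) 2099 (672 lower, 1427 higher) and log2(TPM + 1) without a filter 0 in either direction, with 4506 at an unadjusted p under 0.05. On these 3 scales in turn, genes named Nduf gave 13, 12 and 0 calls against 21, subunits 8 (6 lower, 2 higher), 8 (6 lower, 2 higher) and 0 against 15 (14 lower, 1 higher), and regulators 0, 0 and 0 against 2. Ndufaf factors gave 0 calls without the filter, and their median was -0.18, -0.19 and -0.18 against -0.39. The cause was not tested. With the length trend removed the subunit median was -0.15 and the Ndufaf median -0.28. Mitochondrially encoded subunits gave 2 calls with DESeq2, 2 with the robust fit, 2 with the length trend removed, and 1, 1 and 0 on the TPM scales, against 4. Over all 12510 genes tested, DESeq2 called 3217, the robust fit 4928 and the fit with the length trend removed 4850. Leaving out each library, which leaves 1 in a group whose spread is taken from the other, gave 3586 to 4469 genes, 14 to 24 genes named Nduf, 11 to 18 subunits, 2 to 4 Ndufaf factors (2 without NC 1 and 2 without NC 2), 3 to 5 mitochondrially encoded subunits, 2 regulators and 0 other assembly factors. The subunit median then ran from -0.30 to -0.21 and the Ndufaf median from -0.41 to -0.29.

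With the replicate block, 5006 genes, 24 genes named Nduf, 18 subunits and 4 Ndufaf factors passed. The block with the length trend removed gave medians of -0.15 and -0.28 and 2 mitochondrially encoded calls. The numbers alone do not pair the libraries. Single values of the 46 genes lost a call in 71 and gained one in 22 of these fits and leave-outs. No value called in the main edgeR fit changed sign. No median of the subunits or Ndufaf factors changed sign under any alternative run. Ndufaf genes were counted 55 to 347 times per library and Ndufa1 62 to 94 times, and the standard errors of the 46 genes ran from 0.089 to 0.24.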

Other observations

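The row named Ndufb1-ps, left out by the naming rule, lies on chromosome 12 (101968090 to 101977068) and overlaps exons of Cpsf2 on the other strand. GENCODE M21 types it as a noncoding RNA from a bidirectional promoter, while RefSeq lists a protein-coding gene Ndufb1 there, with Ndufb1-ps among its synonyms. Its NC libraries held 127 and 119 counts against 123 and 87 for KO, with overlapping groups, and the log2 fold change of -0.32 (standard error 0.20, adjusted p = 0.215 in edgeR) did not pass. Ndufab1-ps had at most 1 count in a library.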
